A study of Sus scrofa with 6 samples.

Results

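Mitochondrial ribosomal proteins were taken as the genes whose Ensembl pig identifier maps to a symbol that starts with MRPL or MRPS and a digit. This gave 44 of the 17627 genes of the table, of which 10384 have a symbol. RefSeq lists 77 such symbols for pig, and 33 of them are not among the 44, so the family is covered in part. MRPL12, MRPS12, MRPS30 and MRPS36, which were to be reported whatever their p, are among the 33. They were measured by RNA sequencing in longissimus dorsi, a long muscle that runs along the back, in 3 libraries of Wannanhua pigs, a local Chinese breed, and 3 of Yorkshire pigs, a lean commercial breed. All 6 libraries are labelled as 5 months of age, while the design text of the series speaks of piglets. No treatment or genotype other than breed is given, and the labels do not say that the 3 libraries of a breed came from separate animals, so p-values measure the spread between libraries, which may be technical.

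The mitochondrial ribosome sits in the matrix of the organelle and translates the few proteins that mitochondrial DNA encodes, all of them subunits of the respiratory chain and ATP synthase. Its ribosomal RNAs come from mitochondrial DNA, but its proteins are encoded in the nucleus, made in the cytosol and imported. Many of these proteins have counterparts in bacterial ribosomes, and others were added in the mitochondrial lineage. In oxidative muscle, where respiratory chain content is high, this machinery supplies the core subunits of the complexes.

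Libraries held an estimated 16385602 to 21056699 reads, as read from the step of their scaled counts, and an estimated 22845 to 29486 of those fell on the 44 genes. The 44 genes took 0.121% to 0.170% of the scaled counts of each library. Wannanhua 1 and Wannanhua 2 each list at 0 5 genes that reach 10000 scaled counts or more in another library, and Yorkshire 2 lists 2. The totals of these libraries lack those genes, so their read estimates are lower and their shares higher for it. The highest share and the lowest read estimate are both those of Wannanhua 2. The reads are estimates because the step gave whole reads for most values but not for all, and not every library passed a check of it. All 44 were at 1 FPKM or more in all 6 libraries, so all were tested and none is listed at 0. FPKM are fragments per kilobase of transcript, scaled to the mapped fragments of the library. Of the muscle markers that carry a symbol, DES (desmin) stood between 2181 and 5716 FPKM, while ACTA1, the skeletal actin, is listed at 0 in Wannanhua 1 and Yorkshire 2 and is not used. Of the 2 genes listed to check for heart and liver, ALB, a liver marker, was at 0.418 FPKM or less in every library, and MYH6, a cardiac myosin, is listed at 0 in Wannanhua 2 and stood between 1265 and 6645 FPKM in the other 5 libraries.

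None of the 44 mitochondrial ribosomal protein genes matched here differed between Wannanhua and Yorkshire muscle past the threshold, an adjusted p of 0.05 in limma. Limma is a linear model with moderated variance, fitted here across all 11791 tested genes. The threshold was passed by 0 of the 44 genes, against 3.05% of all tested genes. At an unadjusted p under 0.05 stood 4 of the 44 (9.09%), against 22.1% of all tested genes, and limma on the scaled counts also called 0. The median log2 fold change, taken as Wannanhua minus Yorkshire in log2(FPKM + 1), was 0.12 over the 44 genes and 0.12 over all tested genes. It was positive in 27 and negative in 17, a positive share of 61.4%, against 62.6% of all tested genes. The range ran from -0.59 for MRPL52 to 1.11 for MRPS6.

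The size of the differences was small for most of the family. The 95% interval of the log2 fold change lay within a 2-fold difference either way for 39 of the 44 genes (88.6%), against 64.4% of all tested genes and 63.4% of the 5796 tested genes whose mean FPKM lies between those of the lowest and highest member. The 5 genes whose interval reached further were MRPS6, MRPS10, MRPL47, MRPL24 and MRPL52. The libraries of the breeds did not overlap for 5 genes that were higher in Wannanhua (11.4%; 20.3% of all tested genes) and for 1 that was lower (2.27%; 9.63% of all tested genes). The 5 higher ones were MRPS10, MRPL47, MRPL39, MRPL19 and MRPL9, and the lower one was MRPS2.

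**Figure D1:**
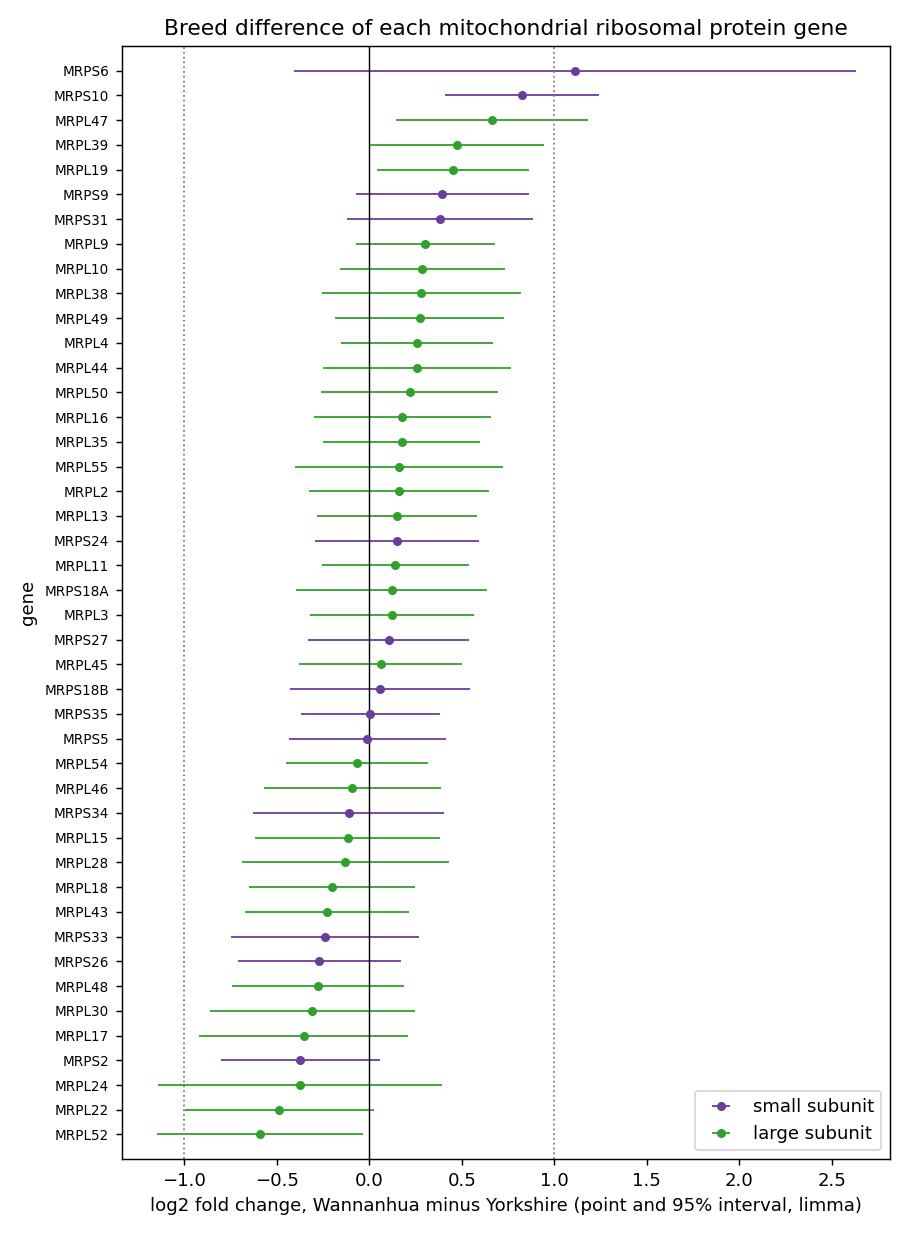
Log2 fold change (Wannanhua minus Yorkshire, log2(FPKM + 1) scale) of the 44 genes with 95% intervals from limma, coloured by subunit; dotted lines mark a 2-fold difference. Intervals of 39 genes stay between the dotted lines, and MRPS6 has the widest, from -0.40 to 2.63.

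Levels within the family differed widely. The mean over 6 libraries ran from 5.64 FPKM for MRPL19 to 110 FPKM for MRPS6, with a median of 25.2 FPKM, against 6.68 FPKM for the median of all tested genes. After MRPS6, the highest means were those of MRPS33 at 89.1, MRPL28 at 84.9 and MRPL30 at 71.8 FPKM. MRPS6 led through its Wannanhua mean of 162 FPKM, since in Yorkshire its mean was 58.1 FPKM, below MRPS33 at 96.0, MRPL28 at 89.8 and MRPL30 at 80.0 FPKM. After MRPL19, the lowest were MRPL54 at 7.22, MRPS2 at 8.65 and MRPL50 at 9.81 FPKM. FPKM divides by the length of the authors' gene model, and this weighs on the order: MRPS33 averaged 154 scaled counts for its 89.1 FPKM, and MRPL19 averaged 519 scaled counts for its 5.64 FPKM. Per FPKM that is 1.73 scaled counts for MRPS33, 4.06 for MRPL22, 4.60 for MRPL54 and 92.0 for MRPL19. MRPL54 had the fewest scaled counts of the family, 29.3 in its lowest library.

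The small subunit decodes the messenger RNA, and 13 of the 44 genes encode its proteins. Their median log2 fold change was 0.06, with 8 positive and 5 negative, and 0 passed limma's threshold. MRPS10 (ENSSSCG00000001638), the counterpart of bacterial S10 in the head of the subunit, came closest to the threshold in the family. It stood at 31.4, 32.1 and 31.1 FPKM in Wannanhua 1, 2 and 3, against 15.05, 16.3 and 21.1 FPKM in Yorkshire 1, 2 and 3. All Wannanhua libraries lay above all Yorkshire libraries, and the Wannanhua values were close together. The means were 31.5 ± 0.51 FPKM in Wannanhua and 17.5 ± 3.20 FPKM in Yorkshire (SD, n = 3 each), a ratio of 1.80. The log2 fold change came to 0.83 (SE 0.18; adjusted p = 0.0558 by limma), and it passed when genes were kept at 5 FPKM in place of 1 (limma adjusted p = 0.0454; 0.0454 to 0.181 over its 14 alternatives). MRPS10 was also the one member whose lowest value of all 6 libraries was in Yorkshire 1, the library where most of the family was highest.

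MRPS6 (ENSSSCG00000026981), the counterpart of bacterial S6 on the platform of the small subunit, varied most. It stood at 201, 247 and 38.3 FPKM in Wannanhua 1, 2 and 3, against 74.9, 46.8 and 52.6 FPKM in Yorkshire 1, 2 and 3. Wannanhua 1 and 2 were far above the other 4 libraries, and Wannanhua 3 was the lowest of all, so the breeds overlapped. The log2 fold change came to 1.11 (SE 0.65; adjusted p = 0.358 by limma), and it depended on the Wannanhua libraries. Without Wannanhua 1 it was 0.77 and without Wannanhua 2 it was 0.62 (limma adjusted p = 0.609 and 0.694), while without Wannanhua 3 it was 1.95 (limma adjusted p = 0.0153, the lowest of its 14 alternatives, which reached 0.694). In the RefSeq annotation of assembly Sscrofa11.1 the span of MRPS6 overlaps that of SLC5A3, a myo-inositol transporter, so reads of both may have been counted together.

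Slow-fibre genes were also highest in Wannanhua 1 and 2. The 4 of the 7 listed slow-fibre markers that carry a symbol here summed to 38305, 41054.5 and 10108 FPKM in Wannanhua 1, 2 and 3, against 17014, 5577 and 9978 FPKM in Yorkshire 1, 2 and 3. For TNNI1, slow troponin I, the values were 6410, 8253 and 1825 FPKM in Wannanhua, against 2540, 1093 and 1565 FPKM in Yorkshire. The 3 libraries with the highest MRPS6, Wannanhua 2, Wannanhua 1 and Yorkshire 1, were also the 3 highest for TNNI1, TNNC1 and TNNT1, in the same order. They were the 3 highest for MYL3 as well, with Wannanhua 1 (8266 FPKM) above Wannanhua 2 (4534 FPKM), and for HBB, the globin of red blood cells. Among other members, MRPS31 and MRPL49 had these 3 libraries highest in the same order as MRPS6. MRPS9 and MRPL44 were among those with these 3 highest in another order, so the pattern was not particular to MRPS6. The 4 of 7 listed fast-fibre markers with a symbol summed to 11498, 7971 and 24593 FPKM in Wannanhua, against 33391, 30008 and 31687 FPKM in Yorkshire. TNNC2 made up most of each sum. Of the 4 markers 1 (25.0%, against 3.05% of all tested genes) passed the threshold. This was CASQ1, at 1525, 1257 and 1876 FPKM in Wannanhua, against 3147, 3780 and 4011 FPKM in Yorkshire (log2 fold change -1.24, limma adjusted p = 0.0435). The part of fibre type in the MRPS6 values was not tested. In bulk muscle, fewer cells of a type and less RNA per cell cannot be told apart.

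The other small-subunit proteins with a bacterial counterpart did not share one direction. MRPS9, of the head, stood at 30.9, 25.3 and 21.3 FPKM in Wannanhua, against 22.3, 18.9 and 16.7 FPKM in Yorkshire (log2 fold change 0.40, limma adjusted p = 0.292). The breeds overlapped, since Yorkshire 1 lay above Wannanhua 3. MRPS2 stood at 6.47, 7.82 and 7.90 FPKM in Wannanhua, against 11.8, 9.30 and 8.65 FPKM in Yorkshire. It was the one member with every Wannanhua library below every Yorkshire library, by a narrow margin between Wannanhua 3 and Yorkshire 3 (log2 fold change -0.37, SE 0.18, adjusted p = 0.281 by limma). MRPS5 averaged 17.0 ± 2.86 FPKM in Wannanhua and 17.0 ± 0.83 FPKM in Yorkshire (SD, n = 3 each), with a log2 fold change of -0.01 and a 95% interval from -0.43 to 0.41. MRPS24, the counterpart of bacterial S3 at the entry of the messenger RNA channel, averaged 58.3 ± 4.42 FPKM in Wannanhua and 53.0 ± 10.1 FPKM in Yorkshire (SD, n = 3 each).

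The 6 small-subunit proteins with no bacterial counterpart had log2 fold changes from -0.27 to 0.38, and all of their 95% intervals lay within a 2-fold difference. MRPS31 stood at 12.7, 14.6 and 9.95 FPKM in Wannanhua, against 11.6, 8.02 and 8.28 FPKM in Yorkshire, and the breeds overlapped. MRPS26 stood at 48.5, 54.1 and 61.3 FPKM in Wannanhua, against 73.8, 69.9 and 55.0 FPKM in Yorkshire, overlapping at Wannanhua 3 and Yorkshire 3. MRPS33 stood at 105, 72.8 and 68.9 FPKM in Wannanhua, against 108, 94.9 and 85.0 FPKM in Yorkshire. Its Wannanhua 1 value was close to that of Yorkshire 1. MRPS27, a pentatricopeptide repeat protein, averaged 23.0 ± 1.86 FPKM in Wannanhua and 21.5 ± 3.78 FPKM in Yorkshire, and MRPS35 averaged 19.9 ± 1.85 FPKM in Wannanhua and 19.7 ± 1.19 FPKM in Yorkshire (SD, n = 3 each). MRPS34, which is needed for a stable small subunit, averaged 25.2 ± 3.20 FPKM in Wannanhua and 27.7 ± 7.04 FPKM in Yorkshire (SD, n = 3 each). MRPS18B, related to bacterial S18, averaged 29.0 ± 4.98 FPKM in Wannanhua and 27.9 ± 5.42 FPKM in Yorkshire (SD, n = 3 each).

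The large subunit forms peptide bonds, and 31 of the 44 genes encode its proteins; MRPS18A is counted here, since despite its symbol it is built into the large subunit. The median log2 fold change of these 31 was 0.14, with 19 positive and 12 negative, and 0 passed limma's threshold. In 28 of the 31 the 95% interval lay within a 2-fold difference. MRPS18A itself stood at 26.8, 29.1 and 25.7 FPKM in Wannanhua, against 34.1, 21.1 and 21.3 FPKM in Yorkshire. Its Yorkshire 1 value was the highest of the 6 and its other Yorkshire values were the lowest.

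**Figure D2:**
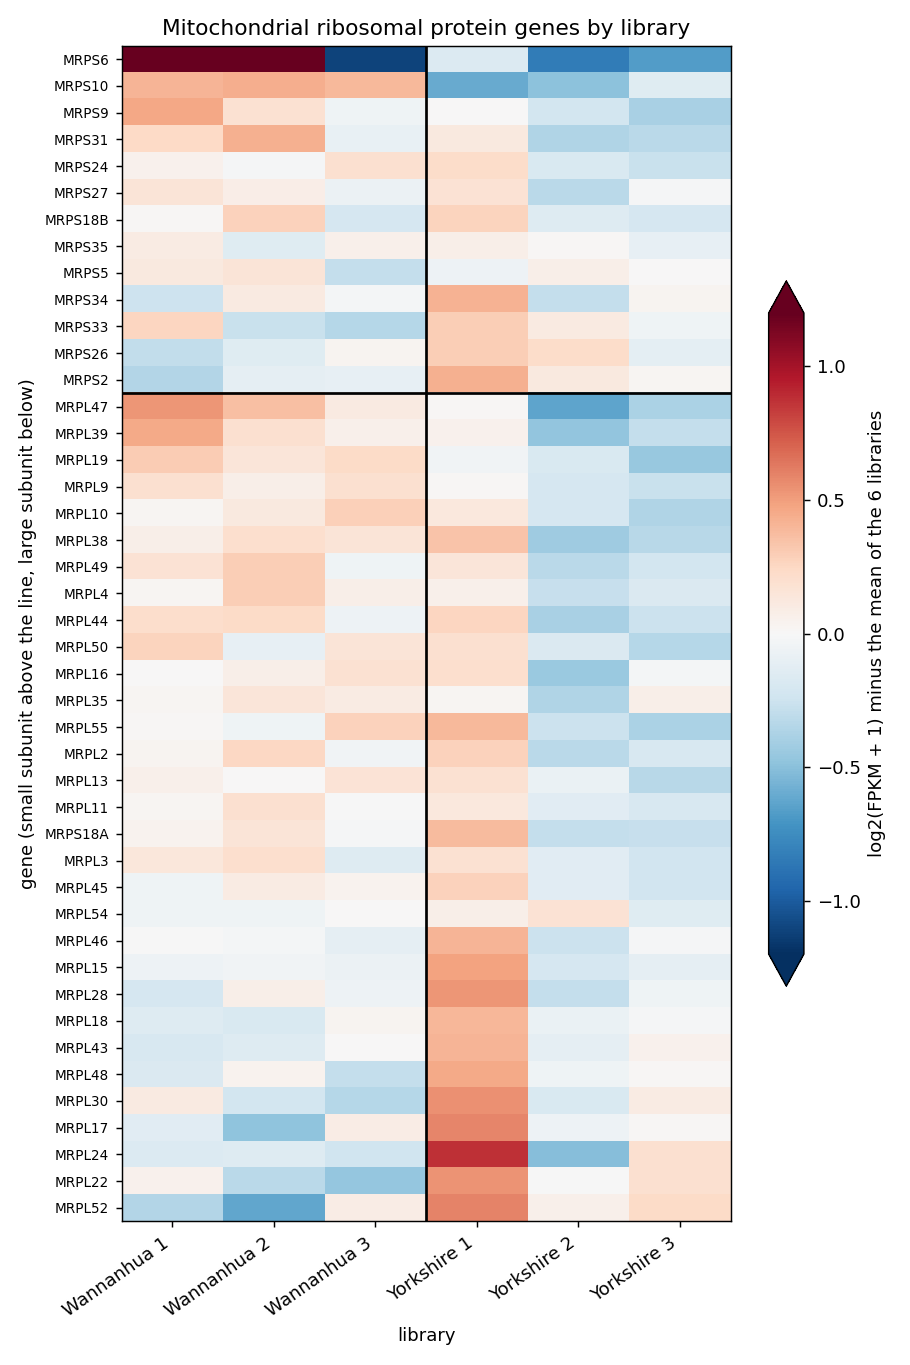
Each gene's log2(FPKM + 1) in each of the 6 libraries minus its mean over the 6, small subunit above the horizontal line and large subunit below, Wannanhua libraries left of the vertical line; the colour scale stops short of the Wannanhua 1 and 2 values of MRPS6. The Yorkshire 1 column is the highest of the 6 for 25 of the 44 genes.

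Proteins around the exit tunnel of the large subunit, through which the new chain leaves, held both ends of the large-subunit range among members with a bacterial counterpart. MRPL47 (ENSSSCG00000011763), the counterpart of bacterial L29 at the tunnel exit, stood at 15.9, 14.0 and 11.6 FPKM in Wannanhua, against 10.9, 6.55 and 7.99 FPKM in Yorkshire. Wannanhua 3 and Yorkshire 1 lay next to each other, without overlap. The log2 fold change came to 0.66 (SE 0.22; adjusted p = 0.141 by limma), with a 95% interval from 0.15 to 1.18. MRPL22 (ENSSSCG00000017065), whose bacterial counterpart lines the tunnel, stood at 35.2, 26.9 and 24.3 FPKM in Wannanhua, against 49.8, 33.8 and 38.8 FPKM in Yorkshire. Only Wannanhua 1 lay within the Yorkshire range, and the log2 fold change came to -0.49 (SE 0.22; adjusted p = 0.243 by limma).

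MRPL24 (ENSSSCG00000006469), also at the tunnel exit, had a tight Wannanhua group and a wide Yorkshire group. It stood at 57.8, 58.0 and 54.9 FPKM in Wannanhua, against 120, 45.3 and 74.4 FPKM in Yorkshire. The Yorkshire 1 value was 2.00 times the mean of Yorkshire 2 and 3, the largest such ratio in the family, and the log2 fold change came to -0.37 (SE 0.33; adjusted p = 0.542 by limma). MRPL17 stood at 20.4, 15.9 and 24.1 FPKM in Wannanhua, against 34.2, 21.5 and 22.7 FPKM in Yorkshire (log2 fold change -0.35, limma adjusted p = 0.429). MRPL4 averaged 15.7 ± 1.76 FPKM in Wannanhua and 12.9 ± 1.71 FPKM in Yorkshire (SD, n = 3 each). MRPL45, which lies at the tunnel exit facing the inner membrane, averaged 38.1 ± 2.00 FPKM in Wannanhua and 36.9 ± 7.35 FPKM in Yorkshire (SD, n = 3 each).

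MRPL19 and MRPL9, counterparts of bacterial L19 and L9, were each higher in all Wannanhua libraries. MRPL19 (ENSSSCG00000021007) stood at 7.09, 6.25 and 6.64 FPKM in Wannanhua, against 5.33, 4.74 and 3.79 FPKM in Yorkshire (log2 fold change 0.46, SE 0.18, adjusted p = 0.189 by limma). MRPL9 stood at 19.5, 17.8 and 19.4 FPKM in Wannanhua, against 17.0, 14.5 and 13.9 FPKM in Yorkshire (log2 fold change 0.30, SE 0.16, adjusted p = 0.315 by limma). In neither gene did the libraries overlap, and in neither did the difference pass the threshold. MRPL10 and MRPL11, at the stalk that binds translation factors, overlapped between breeds. MRPL10 averaged 13.7 ± 1.38 FPKM in Wannanhua and 11.1 ± 2.16 FPKM in Yorkshire, and MRPL11 averaged 41.9 ± 3.31 FPKM in Wannanhua and 38.0 ± 4.74 FPKM in Yorkshire (SD, n = 3 each).

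MRPL2, MRPL3 and MRPL16 lie near the peptidyl transferase centre, where peptide bonds form. MRPL2 averaged 32.8 ± 3.68 FPKM in Wannanhua and 29.7 ± 7.0 FPKM in Yorkshire, and MRPL3 averaged 33.04 ± 4.34 FPKM in Wannanhua and 30.4 ± 4.80 FPKM in Yorkshire (SD, n = 3 each). MRPL16 averaged 28.0 ± 1.83 FPKM in Wannanhua and 25.0 ± 5.69 FPKM in Yorkshire (SD, n = 3 each). The 95% intervals of these log2 fold changes reached from -0.33 to 0.65 for MRPL2, from -0.32 to 0.56 for MRPL3 and from -0.30 to 0.66 for MRPL16.

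Several other members with a bacterial counterpart had their highest value in Yorkshire 1. MRPL28 stood at 72.1, 87.8 and 80.0 FPKM in Wannanhua, against 121, 68.4 and 80.2 FPKM in Yorkshire. MRPL15 stood at 29.0, 29.3 and 28.9 FPKM in Wannanhua, against 42.8, 26.2 and 28.1 FPKM in Yorkshire. MRPL30 stood at 75.7, 60.0 and 55.0 FPKM in Wannanhua, against 103, 61.6 and 75.4 FPKM in Yorkshire. In each of these 3 genes Yorkshire 1 lay above all Wannanhua libraries, and the other Yorkshire libraries lay inside or below the Wannanhua range. MRPL18 averaged 62.6 ± 5.33 FPKM in Wannanhua and 72.7 ± 13.8 FPKM in Yorkshire, and MRPL13 averaged 35.6 ± 2.07 FPKM in Wannanhua and 32.3 ± 5.94 FPKM in Yorkshire (SD, n = 3 each). MRPL35 averaged 10.7 ± 0.49 FPKM in Wannanhua and 9.45 ± 1.66 FPKM in Yorkshire (SD, n = 3 each).

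Among the 11 large-subunit proteins with no bacterial counterpart, MRPL52 and MRPL39 marked the ends. MRPL52 (ENSSSCG00000002040) stood at 17.5, 14.3 and 24.0 FPKM in Wannanhua, against 34.6, 23.6 and 26.6 FPKM in Yorkshire. Wannanhua 3 lay just above the lowest Yorkshire library, and the other Wannanhua libraries lay below all of them. The log2 fold change came to -0.59 (SE 0.24; adjusted p = 0.206 by limma), with a 95% interval from -1.15 to -0.03. MRPL39 (ENSSSCG00000012021), which resembles a threonyl-tRNA synthetase, stood at 35.1, 29.0 and 26.5 FPKM in Wannanhua, against 26.3, 17.9 and 20.6 FPKM in Yorkshire. The lowest Wannanhua and highest Yorkshire libraries were almost level, and the log2 fold change came to 0.47 (SE 0.20; adjusted p = 0.228 by limma).

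The central protuberance, a part of the large subunit that contacts the small one, holds MRPL38, MRPL46 and MRPL48. MRPL38 averaged 32.4 ± 1.44 FPKM in Wannanhua and 27.3 ± 8.68 FPKM in Yorkshire (SD, n = 3 each). MRPL46 averaged 20.3 ± 0.80 FPKM in Wannanhua and 22.2 ± 5.50 FPKM in Yorkshire, and MRPL48 averaged 17.4 ± 2.19 FPKM in Wannanhua and 21.5 ± 4.46 FPKM in Yorkshire (SD, n = 3 each). Their log2 fold changes were 0.28, -0.09 and -0.28. In all 3 the SD was larger in Yorkshire.

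Of the rest, MRPL44, which carries a ribonuclease III-like fold, averaged 11.1 ± 1.31 FPKM in Wannanhua and 9.31 ± 2.55 FPKM in Yorkshire (SD, n = 3 each). MRPL49 averaged 13.3 ± 1.7 FPKM in Wannanhua and 10.9 ± 2.09 FPKM in Yorkshire (SD, n = 3 each). MRPL50 stood at 11.9, 8.97 and 10.9 FPKM in Wannanhua, against 11.2, 8.47 and 7.42 FPKM in Yorkshire, and the breeds overlapped. MRPL43 averaged 35.9 ± 2.72 FPKM in Wannanhua and 42.7 ± 8.23 FPKM in Yorkshire (SD, n = 3 each). All 4 had 95% intervals within a 2-fold difference. MRPL54 stood at 6.92, 6.92 and 7.24 FPKM in Wannanhua, against 7.59, 8.27 and 6.41 FPKM in Yorkshire. MRPL55 averaged 11.4 ± 1.55 FPKM in Wannanhua and 10.4 ± 3.46 FPKM in Yorkshire (SD, n = 3 each).

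**Figure D3:**
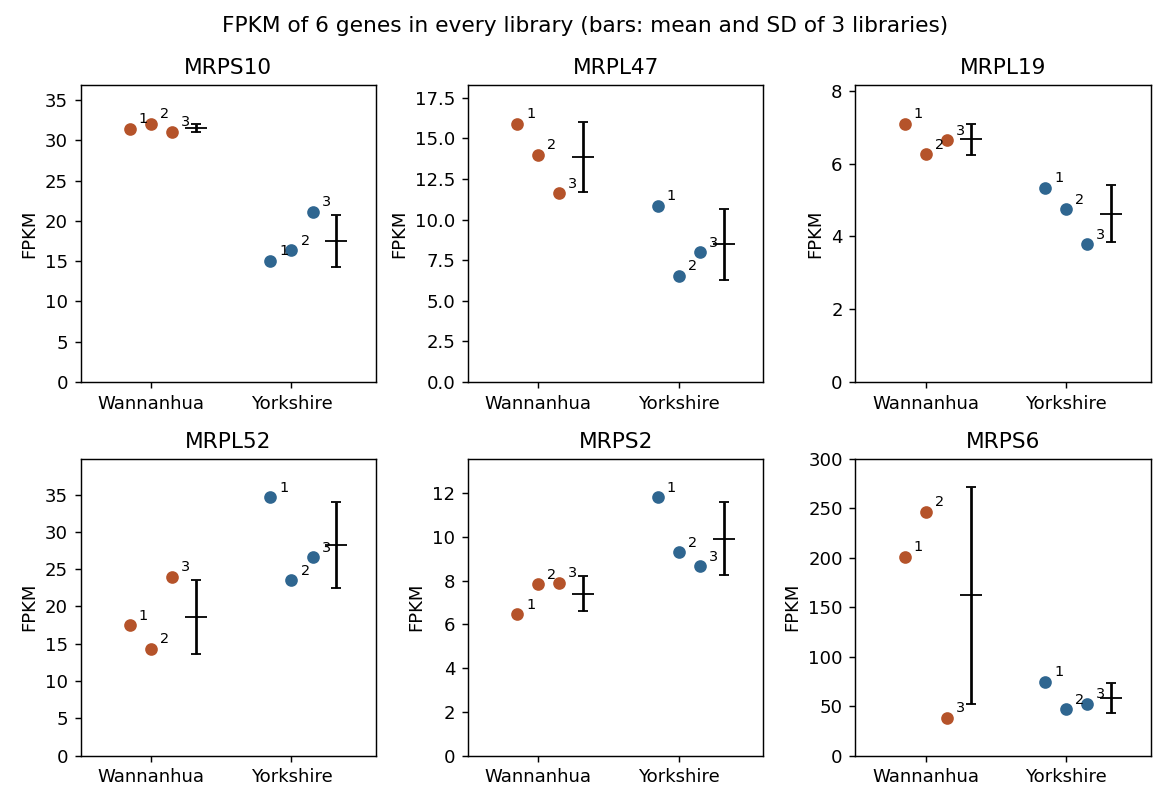
FPKM of MRPS10, MRPL47, MRPL19, MRPL52, MRPS2 and MRPS6 in every library, points numbered by replicate, Wannanhua left and Yorkshire right, with the mean and SD of 3 libraries beside them. MRPS10 is near 31 FPKM in all 3 Wannanhua libraries, and MRPS6 splits the Wannanhua libraries into 201 and 247 FPKM against 38.3 FPKM.

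The spread inside Yorkshire was a feature that members of the family shared with each other and with some related lists. Yorkshire 1 was the highest of the 3 Yorkshire libraries for 40 of the 44 genes (90.9%), against 30.9% of all tested genes. It was the highest of all 6 libraries for 25 of the 44 (56.8%), against 15.1% of all tested genes and 18.4% of those in the same range of mean FPKM. The median ratio of Yorkshire 1 to the mean of Yorkshire 2 and 3 was 1.37 over the 44 genes. The coefficient of variation had a median of 11.1% within Wannanhua and 19.6% within Yorkshire over the 44 genes. It was not computed over all tested genes, so the wider Yorkshire value cannot be called particular to the family. MRPS10, MRPS5, MRPL35 and MRPL54 were the 4 members not highest in Yorkshire 1 among the Yorkshire libraries.

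Measured against each gene's mean over the 6 libraries, the family's median log2 deviation was 0.04, 0.07 and 0.00 in Wannanhua 1, 2 and 3, against 0.24, -0.20 and -0.16 in Yorkshire 1, 2 and 3. Over all tested genes it was -0.03, 0.12 and 0.09 in Wannanhua, against -0.15, 0.02 and -0.03 in Yorkshire. The family's Yorkshire 1 value was thus above its mean while that of all genes was below. Without Yorkshire 1 the median log2 fold change of the 44 genes was 0.24, with 31 positive, and it was 0.02 without Yorkshire 2 and 0.02 without Yorkshire 3. All genes tested gave a median of 0.06 without Yorkshire 1, 0.16 without Yorkshire 2 and 0.14 without Yorkshire 3. None of the 44 passed limma's threshold in any of these 3 fits.

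Yorkshire 1 also differed in the number of genes found and in markers of other cells. It had 10726 genes at 1 FPKM or more, against 11491 to 11979 in the other libraries. Of all tested genes 83 were at 0 there, against 33 to 51 in the other libraries. The 2 adipocyte markers of the 5 listed that carry a symbol, PLIN1 and CIDEC, summed to 10.16, 13.9 and 11.1 FPKM in Wannanhua 1, 2 and 3, against 1.29, 11.99 and 10.7 FPKM in Yorkshire 1, 2 and 3. HBB, the globin of red blood cells, stood at 141, 116 and 42.9 FPKM in Wannanhua, against 93.1, 15.5 and 17.98 FPKM in Yorkshire. Yorkshire 1 was the lowest library for the adipocyte sum and the highest Yorkshire library for HBB. The part of these cell types, or of the smaller number of genes found, in the level of the mitochondrial ribosomal proteins was not tested.

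The mitochondrial ribosome also holds proteins whose symbols lack the MRPL or MRPS prefix, and 3 of 6 listed were matched. PTCD3 (ENSSSCG00000008225), a pentatricopeptide repeat protein of the small subunit, stood at 27.9, 26.6 and 20.5 FPKM in Wannanhua, against 17.2, 17.4 and 17.9 FPKM in Yorkshire. Its libraries did not overlap, and the log2 fold change came to 0.48 (SE 0.18; adjusted p = 0.173 by limma). DAP3, a small-subunit protein that binds guanine nucleotides, averaged 9.10 ± 1.48 FPKM in Wannanhua and 9.12 ± 0.87 FPKM in Yorkshire (SD, n = 3 each). CHCHD1 averaged 25.4 ± 5.61 FPKM in Wannanhua and 25.5 ± 4.56 FPKM in Yorkshire (SD, n = 3 each). None of the 3 passed limma's threshold, and 1, PTCD3, had an unadjusted p under 0.05.

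Of the proteins that assemble or use the mitochondrial ribosome, 1 gene passed the threshold. Among 12 tested translation factors this was MTIF2 (ENSSSCG00000008404), the initiation factor that brings the initiator tRNA to the small subunit. It stood at 16.9, 16.2 and 15.3 FPKM in Wannanhua, against 8.69, 7.26 and 9.61 FPKM in Yorkshire. All Wannanhua libraries lay well above all Yorkshire libraries, and the log2 fold change came to 0.85 (SE 0.17; adjusted p = 0.0465 by limma; 0.0380 to 0.155 over its 14 alternatives). The call was lost in 10 of the 14, among them each of the 6 fits that leave out a library. Those 6 fits gave log2 fold changes from 0.75 (without Yorkshire 2) to 0.93 (without Yorkshire 3).

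LRPPRC, which stabilises mitochondrial messenger RNA, is mentioned because of its values. It had 48.8, 49.6 and 48.7 FPKM in Wannanhua, against 31.6, 29.2 and 29.9 FPKM in Yorkshire. The 2 groups were each tight and did not overlap (log2 fold change 0.68, SE 0.15, adjusted p = 0.0577 by limma). Of the 12 translation factors 9 were positive (75.0%, against 62.6% of all tested genes) and 3 negative. SLIRP stood at 349, 301 and 331 FPKM in Wannanhua, against 626, 372 and 455 FPKM in Yorkshire (log2 fold change -0.53, limma adjusted p = 0.232). MTFMT was also lower in every Wannanhua library (log2 fold change -0.53, limma adjusted p = 0.152). The median log2 fold change of the 12 translation factors was 0.11, with 1 higher (8.33%, against 3.05% of all tested genes) and 0 lower past the threshold. The 17 tested assembly factors had a median of -0.02, with 8 positive and 9 negative and 0 past the threshold. At an unadjusted p under 0.05 stood 4 of the 17 (23.5%), near the 22.1% of all tested genes. After quantile normalization the median was -0.01 for the translation factors and -0.15 for the assembly factors, against 0.00 for all tested genes.

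The aminoacyl-tRNA synthetases of mitochondria, which charge the tRNAs that the mitochondrial ribosome uses, had 12 of 14 tested genes positive (85.7%, against 62.6% of all tested genes) and a median log2 fold change of 0.26, against 0.12 for all tested genes. Genes of mitochondrial DNA expression and upkeep had a median of 0.34 over 8 tested genes, all positive. In both lists 0 passed limma's threshold. At an unadjusted p under 0.05 stood 4 of the 14 synthetases (28.6%) and 4 of the 8 genes of DNA upkeep, against 22.1% of all tested genes. After quantile normalization 9 of the 14 synthetases were positive, with a median of 0.12. Of the 8 genes of mitochondrial DNA expression and upkeep 7 were then positive, with a median of 0.20. The subunits that mitochondrial DNA encodes, the products of this ribosome, had a median of 0.48 over the 9 with usable values. Of these 9, 0 passed limma's threshold and 2 (22.2%) stood at an unadjusted p under 0.05, near the 22.1% of all tested genes. Their median was 0.23 without Yorkshire 2 and 0.76 after quantile normalization. The other 4 were left out because they are listed at 0 in Wannanhua 1 and 2.

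Respiratory chain subunits made in the cytosol had a median of 0.15 over 41 tested genes, with 31 positive (75.6%, against 62.6% of all tested genes). Past limma's threshold stood 0 of them, against 3.05% of all tested genes. At an unadjusted p under 0.05 stood 1 of the 41 (2.44%), against 22.1%. The median was 0.42 with 40 positive without Yorkshire 1, and it turned to -0.07 without Yorkshire 2. Their median log2 deviations were 0.31, 0.25 and -0.31 in Wannanhua 1, 2 and 3, against 0.47, -0.53 and -0.17 in Yorkshire 1, 2 and 3. The order of the Yorkshire libraries was the same as that of the mitochondrial ribosomal proteins. Among the Wannanhua libraries, replicate 3 lay lowest in both lists, with a wider gap for the respiratory chain. Cytosolic ribosomal proteins had 22 of 23 tested genes negative and 1 positive (4.35%, against 62.6% of all tested genes), with a median log2 fold change of -0.31. Of the 23, 0 passed limma's threshold and 5 (21.7%) stood at an unadjusted p under 0.05, near the 22.1% of all tested genes. In 14 of the 23 (60.9%) every Wannanhua library lay below every Yorkshire library, against 9.63% of all tested genes. In 0 of them did every Wannanhua library lie above. Their median was -0.18 without Yorkshire 1 and -0.20 after quantile normalization. The deviation of the cytosolic ribosomal proteins too was highest in Yorkshire 1, at 0.39, and 21 of the 23 genes were highest of all 6 libraries there.

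**Figure D4:**
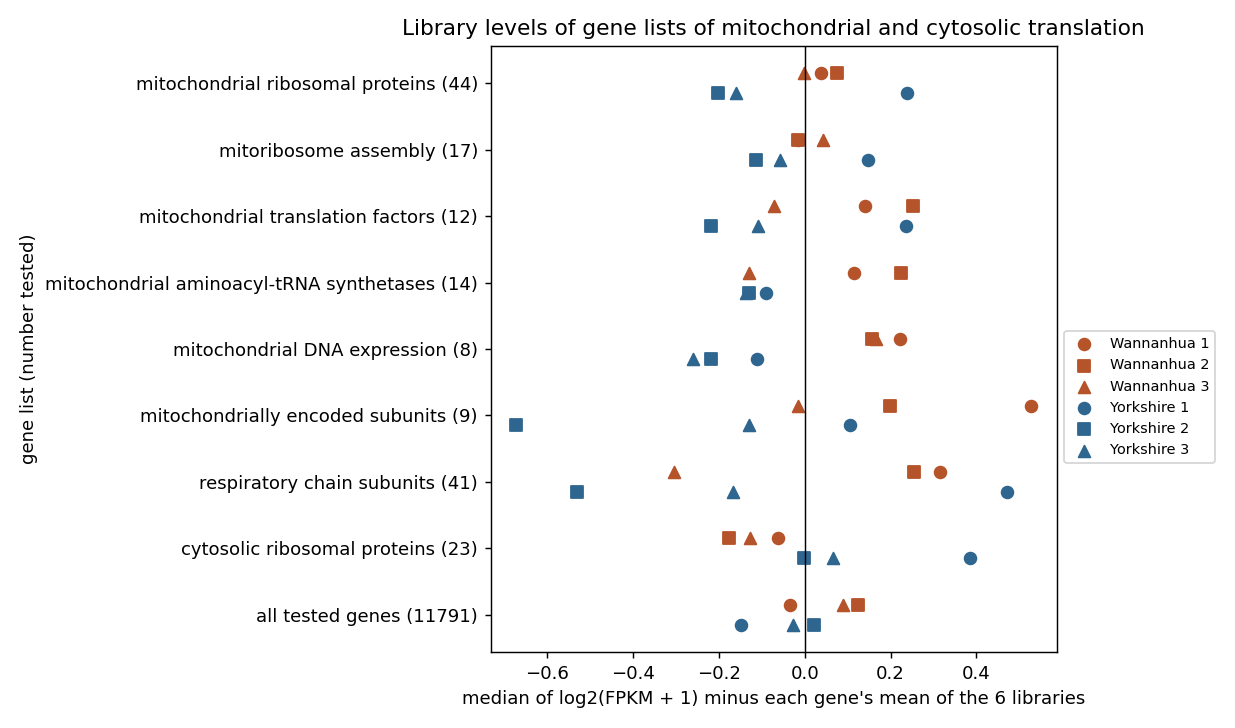
Median log2(FPKM + 1) of each gene list in each library, after subtracting every gene's mean over the 6 libraries; colours mark the breeds and shapes the replicates. Mitochondrial ribosomal proteins run from -0.20 in Yorkshire 2 to 0.24 in Yorkshire 1, with the Wannanhua libraries between 0.00 and 0.07.

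Some of these genes share their place with another gene, which matters because the library kit does not mark strand. In the RefSeq annotation of Sscrofa11.1, a later build than the one named by the submitters, the spans of 12 of the 44 genes overlap a protein-coding gene. The partners with a value in the table are GCFC2 at MRPL19, KLC4 at MRPL2, TWNK at MRPL43, ACTL6A at MRPL47, FAU at MRPL49, OAZ3 at MRPL9, PPP1R10 at MRPS18B and PTCD2 at MRPS27. TWNK, the helicase of mitochondrial DNA, stood at 6.80, 6.62 and 6.75 FPKM in Wannanhua, against 5.00, 4.88 and 4.74 FPKM in Yorkshire, while MRPL43 was at 33.9, 34.9 and 39.0 FPKM in Wannanhua, against 51.9, 36.0 and 40.3 FPKM in Yorkshire. The partners differed in sign (log2 fold change 0.40 for TWNK and -0.23 for MRPL43; limma adjusted p = 0.182 and 0.512). ACTL6A, a chromatin remodelling subunit, was at 4.84, 4.94 and 4.85 FPKM in Wannanhua, against 4.51, 3.59 and 3.62 FPKM in Yorkshire, below MRPL47 in every library. OAZ3, an ornithine decarboxylase antizyme, was at 1.72, 3.84 and 2.81 FPKM in Wannanhua, against 0.68, 0.73 and 0.58 FPKM in Yorkshire. Its libraries did not overlap, and it was higher in Wannanhua past the threshold (log2 fold change 1.1496, limma adjusted p = 0.0495; 0.0469 to 0.172 over its 13 alternatives), the same sign as MRPL9. OAZ3 is described because of its values. The call of OAZ3 was lost in 10 of the 13, among them each fit that leaves out a library. PTCD2 and MRPS27 also differed in sign (log2 fold change -0.49 and 0.11), and the other partners had the sign of the family member they overlap. The spans of MRPL22 and MRPL3 overlap pseudogenes and that of MRPL17 a long non-coding RNA, so 15 of the 44 genes overlap a gene of any kind. Values of these 15 genes are uncertain to the extent that reads of a partner were counted with them.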

How the data were processed

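Poly-A RNA of 6 libraries was made into paired-end libraries with random primers, per the labels' protocols. CASAVA 1.7, TopHat2 2.0.6 and build Sscrofa10.2 are named in the submitters' processing notes, with no role; the counter and the annotation are unnamed there. The FPKM values were deposited by the authors, scaled for transcript length and mapped fragments, per the file headers. The columns headed as counts were deposited by the authors as a signal that is not whole: in each library 99.7% to 99.8% of values above 0 are multiples of 1 step (tolerance 0.01 of a read, or 1e-05 of the value). Reads per library were estimated as the column's total divided by that step. The design asked for a count test if counts were whole, so limma was used and edgeR was not run.

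Symbols were found for 10384 of 17627 identifiers; 33 further RefSeq symbols of the family are not analysed here. Genes were kept at 1 FPKM or more in at least 3 libraries, and 7 genes listed at 0 in a library, despite 10000 scaled counts or more elsewhere, were left out, leaving 11791. Log2(FPKM + 1) was fitted in limma 3.58.1 (R 4.3.3) with breed as its only term and with trend and robust settings, and p-values were adjusted over all genes by Benjamini-Hochberg. The fit was tested on simulated data. Lists are described by counts and medians alone, with no test of a list. The members and lists were chosen with earlier results of these data known. Values by library are given for members past the threshold, the 6 largest log2 fold changes either way, the 4 highest and 4 lowest means, MRPS18A, and others that help to show the pattern. The alternatives were quantile normalization, other filters, a pseudocount of 0.1, plain moderation, the replicate number as a block, each library left out and, added after seeing the data, the scaled counts.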

Additional observations from a re-analysis of the deposited data

How the results depend on the processing

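The number of mitochondrial ribosomal protein genes past limma's threshold was 0 as reported and 1 with genes kept at 5 FPKM (MRPS10); over the fits that leave out a library it ran from 0 to 1 (MRPS6, without Wannanhua 3). The median log2 fold change of the 44 genes lay between 0.02 and 0.24 under the 14 alternatives, against 0.12 as reported. These moves stayed within the SD of 0.24 between replicates in the family's median level, which is larger than the reported median itself. A median of 0 would also have stayed within it, so this comparison cannot show that the median is steady. After quantile normalization the median was 0.05 for the 44 genes and 0.00 for all genes, against 0.12 for both as deposited. Of all tested genes 208 were higher and 152 lower in Wannanhua as reported, against 138 higher and 200 lower after quantile normalization. Their total was 360 as reported, 69 without a filter on low values and 205 with the replicate block. The count ran from 27 to 524 with a library left out. Leaving out Wannanhua 1 left 41, Wannanhua 2 left 30 and Wannanhua 3 left 524, while leaving out Yorkshire 1 left 190, Yorkshire 2 left 58 and Yorkshire 3 left 27. The replicate block called 0 of the 44 genes. Same-numbered libraries correlated at 0.10, -0.01 and 0.11 in their deviations from the breed means, so the numbers were not taken as pairs. The causes of these moves were not tested. The count test planned on whole reads was not run, since the deposited counts are not whole. With 3 libraries a breed the intervals are wide, and a gene that did not pass may still differ by any amount inside its interval. Intervals cover the spread between libraries, and model lengths, strand and reads shared with overlapping genes limit the levels.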
